A study of Mus musculus with 24 samples.

Results

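Mitochondrial fatty acid oxidation was followed in the mouse mammary gland through 33 genes, taken by name as the carriers and enzymes of the pathway and by no threshold on their values, out of 32544 genes in the deposited table. They are 5 genes of the carnitine shuttle, 5 long-chain acyl-CoA synthetases, 9 acyl-CoA dehydrogenases, 7 enzymes of the later steps of the spiral, 2 auxiliary enzymes for unsaturated fatty acids, 3 genes of electron transfer flavoprotein and its oxidoreductase, and 2 subunits of propionyl-CoA carboxylase. Polyadenylated RNA had been sequenced from snap-frozen inguinal mammary glands of female mice named C57 or NZB, all on a BL/6 background. For each name there were 3 non-lactating mice and 3 mice at each of lactation days 8, 14 and 21, which makes 8 groups and 24 mice. The names C57 and NZB are used in this field for the source of the mitochondrial DNA, and the labels give only the names; the sources used here do not state the ages. The whole gland was used, with its fat, so every value mixes milk-secreting epithelium, adipocytes, stroma and immune cells.

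Fatty acids enter this pathway as acyl-CoA esters, made by the long-chain acyl-CoA synthetases. Carnitine palmitoyltransferase 1 on the outer mitochondrial membrane turns them into acylcarnitines, the step that malonyl-CoA inhibits, and a translocase and carnitine palmitoyltransferase 2 bring them to the matrix, where each turn of the spiral oxidises, hydrates, oxidises again and cleaves the chain. The lactating gland is known for making fatty acids and milk triglyceride, while adipocytes of the same fat pad store and release them.

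The members' deposited values are log10(CPM + 1), where CPM is the read count per M reads of the library. The deposited columns were worth 7.03 to 24.25 M reads per mouse. Transcripts of 20 milk protein genes took 0.49% ± 0.01 of reads in non-lactating C57 glands and 74.11% ± 2.65 on day 8 (SD, n = 3), and in NZB glands 72.01% ± 3.43 on day 14 but 25.36% ± 6.21 on day 21. Levels below are therefore CPM with the milk protein genes left out and the rest rescaled to the same total, called non-milk CPM. Changes are differences of log2(non-milk CPM + 1), a scale that understates the change of low genes, from one limma fit over all 24 mice and 16898 genes, with Benjamini-Hochberg adjusted p and a threshold of 0.05. All 33 members were among the 16898 genes. C57 non-lactating mouse 3 is NZB in one label and C57 in its title; Gm29216, a nuclear copy of a mitochondrial gene, was at 3591 deposited CPM in this mouse, at no less than 267.9 in the other C57 mice and listed at 0 in all 12 NZB mice, and the mouse was kept in C57.

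The stretches of 250 bases before a start site are shown here for Cpt1a and Acsl6, the members with the largest opposite changes on the route into the mitochondrion, and for Hadhb, which starts head to head with Hadha. The sequences come from RefSeq on build GRCm38.p6 and run 5′ to 3′ toward the gene. The Cpt1a window precedes a RefSeq start but lies inside the GENCODE span of the gene, which begins upstream at chr19:3322334. Capitals mark each nuclear receptor half-site AGGTCA, read on either strand (TGACCT), and in Acsl6 the second run of capitals is the longer TCAAGGTCA, which contains a half-site, on the opposite strand.
Cpt1a chr19:3323051-3323300 (+): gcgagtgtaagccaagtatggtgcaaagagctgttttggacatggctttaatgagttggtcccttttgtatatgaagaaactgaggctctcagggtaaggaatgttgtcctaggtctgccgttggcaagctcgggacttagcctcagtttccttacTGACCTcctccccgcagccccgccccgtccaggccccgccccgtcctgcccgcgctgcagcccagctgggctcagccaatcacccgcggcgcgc
Acsl6 chr11:54303574-54303823 (+): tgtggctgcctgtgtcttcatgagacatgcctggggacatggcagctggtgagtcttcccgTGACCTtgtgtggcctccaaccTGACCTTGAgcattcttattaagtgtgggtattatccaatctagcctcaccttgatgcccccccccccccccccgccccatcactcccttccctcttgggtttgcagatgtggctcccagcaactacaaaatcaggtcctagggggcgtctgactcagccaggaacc
Hadhb chr5:30155003-30155252 (+): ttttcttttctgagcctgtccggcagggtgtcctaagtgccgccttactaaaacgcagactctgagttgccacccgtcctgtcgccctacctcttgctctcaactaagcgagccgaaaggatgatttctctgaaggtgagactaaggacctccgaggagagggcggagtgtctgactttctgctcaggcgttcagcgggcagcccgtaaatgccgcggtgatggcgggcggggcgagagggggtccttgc
The half-site lay in 6 of 31 member start windows (19.4%) and in 14.0% of all 32851 windows of the same length. These member windows cover 27 of the 33 members, and Cpt1b, Crat, Acad9, Acaa2, Acat1 and Decr1 had none and were not searched. Acadm, Echs1, Acsl6, Acadvl, Pcca and Cpt1a held it, Acsl6 in 1 of its 3 windows (the one shown) and Pcca in 1 of 2, a window whose next bases open no GENCODE transcript of the gene. The longer TCAAGGTCA was found in 1 member window, that of Acsl6 (3.23%), against 0.387% of all windows. A direct repeat AGGTCANAGGTCA was in none of the member windows searched and in 0.0335% of all. These matches describe letters in a window and are not binding sites. The Hadhb window is largely shared with that of Hadha, which runs the other way over chr5:30154981-30155230.

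**Figure D1:**
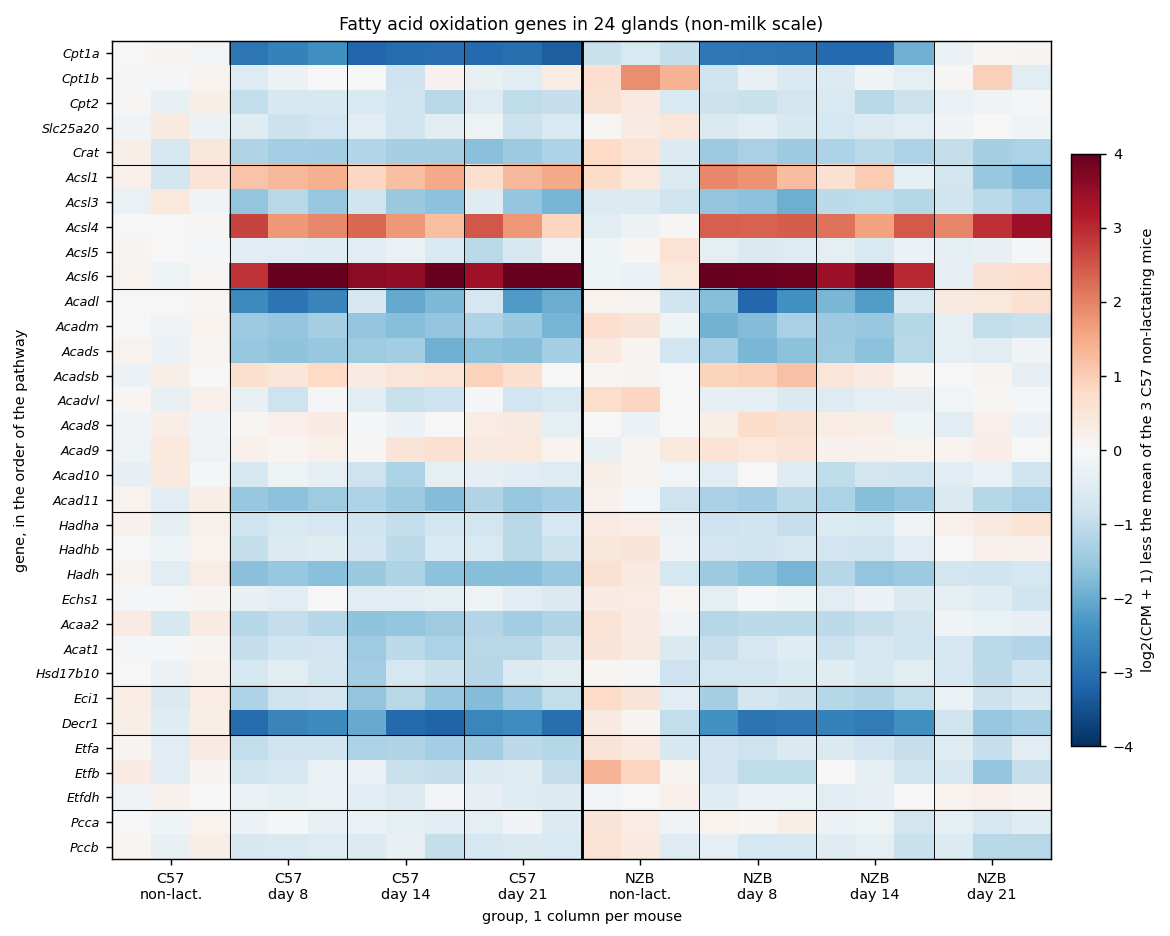
Heat map of the 33 members (rows, grouped by role) in the 24 mice (columns, grouped by genotype and stage); colour is log2(non-milk CPM + 1) less the mean of the 3 C57 non-lactating mice. By limma, 20 of 33 members were called lower on day 8 in C57 and 22 in NZB, where 35.0% and 25.9% of all genes were. Each call is against the non-lactating mice of the same genotype, which the colours do not show for NZB. On day 8 Acsl1, Acsl4 and Acsl6 are higher (Acsl1 turns direction on the deposited scale). On NZB day 21 Cpt1a is near the C57 non-lactating level and far above the other lactating groups, with Acsl6 far below them.

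In C57 glands, 20 of the 33 members fell and 4 rose between the non-lactating state and lactation day 8. Cpt1a, Acadl and Decr1 fell most, by 2.68, 2.71 and 2.75 on the log2 scale, and Hadh, Acads, Acad11 and Acadm by between 1.45 and 1.62. The genes that rose were the synthetases Acsl6, Acsl4 and Acsl1 and the branched-chain dehydrogenase Acadsb; Acsl1 and Acadsb turned to -0.65 and -1.30 on the deposited scale, where milk genes stay in and 90.5% of all genes were lower. Of all genes tested, 35.0% fell and 14.5% rose in this comparison, so both directions were common across the table. The median change was -0.67 over the members and -0.30 over all genes. With trimmed-mean scaling, which brings the median of all genes to -0.02, 12 members fell and 6 rose, against 25.8% and 24.2% of all genes, and the members' median was -0.35. In a whole gland, fewer cells of a type and less RNA per cell cannot be told apart.

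Later C57 stages gave like counts. On day 14, 22 members were lower and 3 higher than in non-lactating glands, where 39.4% of all genes were called in either direction; on day 21 it was 21 and 4, where 37.1% were called. With trimmed-mean scaling the counts were 19 lower and 5 higher on day 14 (41.5% of all genes), and 15 lower and 5 higher on day 21 (38.9%). These C57 comparisons share their non-lactating mice. Leaving out mouse 3, the one with conflicting labels, gave 16 lower and 4 higher on day 8. Here and below, the share of all genes is not given for refits with a single mouse left out. A lower count in such a refit cannot be read as particular to the members. Between days 14 and 21, C57 glands showed no member past the threshold by limma, nor any of the 16898 genes (0.0%), and no member had an unadjusted p under 0.05.

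NZB glands gave 22 lower and 4 higher members on day 8, against 25.9% and 12.2% of all genes, and 23 lower and 2 higher on day 14, against 22.6% and 12.3%. With trimmed-mean scaling these became 12 lower and 6 higher on day 8, where 18.8% and 18.5% of all genes passed, and 12 lower and 2 higher on day 14, where 16.1% and 18.0% did. Of the members lower on day 8, 19 were shared, which is 19 of the 20 C57 calls and 19 of the 22 NZB calls, and the 4 that rose were the same genes in both. The shared part was not counted over all genes, so the sharing cannot be read as particular to the members. Hsd17b10 passed in C57 and not in NZB, and Acadvl, Cpt1b and Etfb passed in NZB and not in C57. The difference between genotypes in the day 8 change was itself past the limma threshold for none of the 33 members, and for 0.728% of all genes. Before adjustment, 2 members, Cpt1b and Etfb, had a p under 0.05, with differences of -1.61 and -1.13. The share of all genes at that unadjusted level is not given here.

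**Figure D2:**
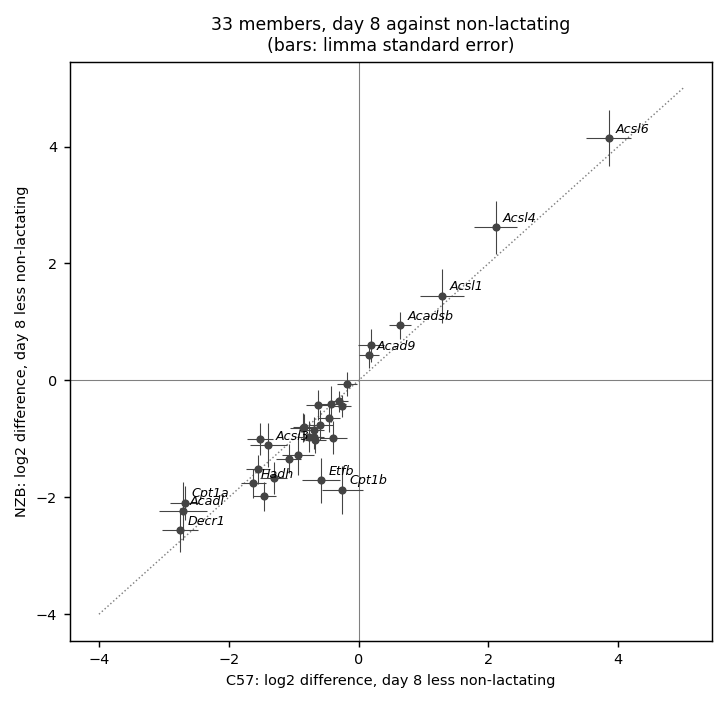
Each point is a member; the x axis is its log2 change from non-lactating to day 8 in C57 and the y axis the same in NZB, with bars of 1 standard error. The 4 members that rose (Acsl1, Acsl4, Acsl6 and Acadsb) lie at the upper right (Acsl1 and Acadsb turn direction on the deposited scale), and Cpt1a, Acadl and Decr1 at the lower left; the genotypes have separate mice.

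The carnitine shuttle carries the acyl group across the inner membrane. Cpt1a, the form of carnitine palmitoyltransferase 1 typical of liver and many other tissues, lies at chr19:3322334-3385733 (GRCm38). It stood at 102, 109.6 and 95.5 non-milk CPM in the 3 non-lactating C57 mice, at 12.9, 14.9 and 17.9 on day 8, at 10.6, 11.2 and 11.5 on day 14 and at 10.9, 11.8 and 9.45 on day 21. All lactating C57 mice lay far below all non-lactating ones, and the fall was 2.68 ± 0.22 (SE) on day 8 (limma adjusted p = 6.7e-10) and 3.14 ± 0.25 on day 21 (limma adjusted p = 1.5e-09). NZB glands started lower, at 55.1, 66.5 and 52.9 CPM, and held 13.3, 12.9 and 12.3 on day 8. Their fall was 2.09 ± 0.29 on day 8 (limma adjusted p = 6.3e-06). The non-lactating genotypes did not overlap for Cpt1a, yet their difference of -0.81 (95% interval -1.43 to -0.19) did not pass over all genes (limma adjusted p = 0.19).

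Cpt1b is the muscle form of the same enzyme. It was scarce in C57, between 1.98 and 5.45 CPM in all 12 mice. In NZB non-lactating glands it stood at 7.51, 18.1 and 12.9 CPM, above every C57 mouse, and at 2.03 to 3.33 on day 8, a fall of 1.87 ± 0.41 (limma adjusted p = 0.001). The summed level of 13 skeletal muscle genes was 115, 24.8 and 951 CPM in those 3 non-lactating mice. Ucp1, the brown fat uncoupling protein, was 0.87, 9.29 and 2.40 CPM there and at most 0.63 in the other mice. All 12 brown adipocyte genes summed to 158, 175 and 92.1 CPM there and to between 805 and 924 on NZB day 8. Of the 9 of these that were tested, 2 rose and 5 fell on NZB day 8. The part of muscle or brown fat in the Cpt1b level was not tested. Exons of Gm44502 on the same strand cover 81.4% of Cpt1b exon bases, so reads of the 2 genes may have been split or shared.

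Cpt2 and the translocase Slc25a20 complete the shuttle, and Crat makes short-chain acylcarnitines. Cpt2 was at 71.1, 55.5 and 80.6 CPM in non-lactating C57 mice and at 34.1, 43.1 and 43.0 on day 8, a fall of 0.76 ± 0.19 (limma adjusted p = 0.0017). Slc25a20 fell by 0.69 ± 0.16 (limma adjusted p = 0.001). Crat went from 183, 95.2 and 208 CPM to 66.1, 59.8 and 58.2, a fall of 1.31 ± 0.21 (limma adjusted p = 1.4e-05), and by 1.67 ± 0.28 in NZB (limma adjusted p = 6.5e-05). Within the shuttle, 4 of 5 members fell on day 8 in C57, where 35.0% of all genes fell, and 5 of 5 in NZB, where 25.9% did; Cpt1a and Crat were the 2 whose NZB call held in the other settings below.

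The 5 long-chain acyl-CoA synthetases did not move together. Acsl1, the main form in adipocytes, stood at 1412, 729 and 1781 CPM in non-lactating C57 mice and at 2678, 3099 and 3257 on day 8. The groups did not overlap and the rise was 1.29 ± 0.34 (limma adjusted p = 0.0027); in NZB it was 1.45 ± 0.46 (limma adjusted p = 0.015), which did not hold without NZB non-lactating mouse 2 (1.57, limma adjusted p = 0.14). On the deposited scale Acsl1 was at -0.47 in NZB, below 0 as in C57. Acsl4, which prefers arachidonic acid, went from 51.9, 51.3 and 53.6 CPM to 345, 175 and 199 in C57, a rise of 2.11 ± 0.33 (limma adjusted p = 1e-05), and by 2.62 ± 0.45 in NZB (limma adjusted p = 6.6e-05).

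Acsl6, known mainly from brain, had the largest change of the 33 members on day 8. It was at 0.72, 0.36 and 0.60 CPM in non-lactating C57 mice and at 10.4, 30.4 and 30.4 on day 8, with no overlap, a rise of 3.85 ± 0.35 (limma adjusted p = 5.3e-09). NZB mice went from 0.38, 0.29 and 1.07 CPM to 36.2, 22.8 and 21.8, a rise of 4.14 ± 0.48 (limma adjusted p = 5.4e-07). Acsl3, which sits on the endoplasmic reticulum and lipid droplets, went the other way, from 10.98, 18.7 and 12.1 CPM to 3.90, 5.81 and 4.11 in C57, a fall of 1.39 ± 0.28 (limma adjusted p = 0.0002). Acsl5 fell by 0.46 ± 0.17 (limma adjusted p = 0.031), between 31.1 and 35.4 CPM before and 23.0 and 23.9 on day 8.

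**Figure D3:**
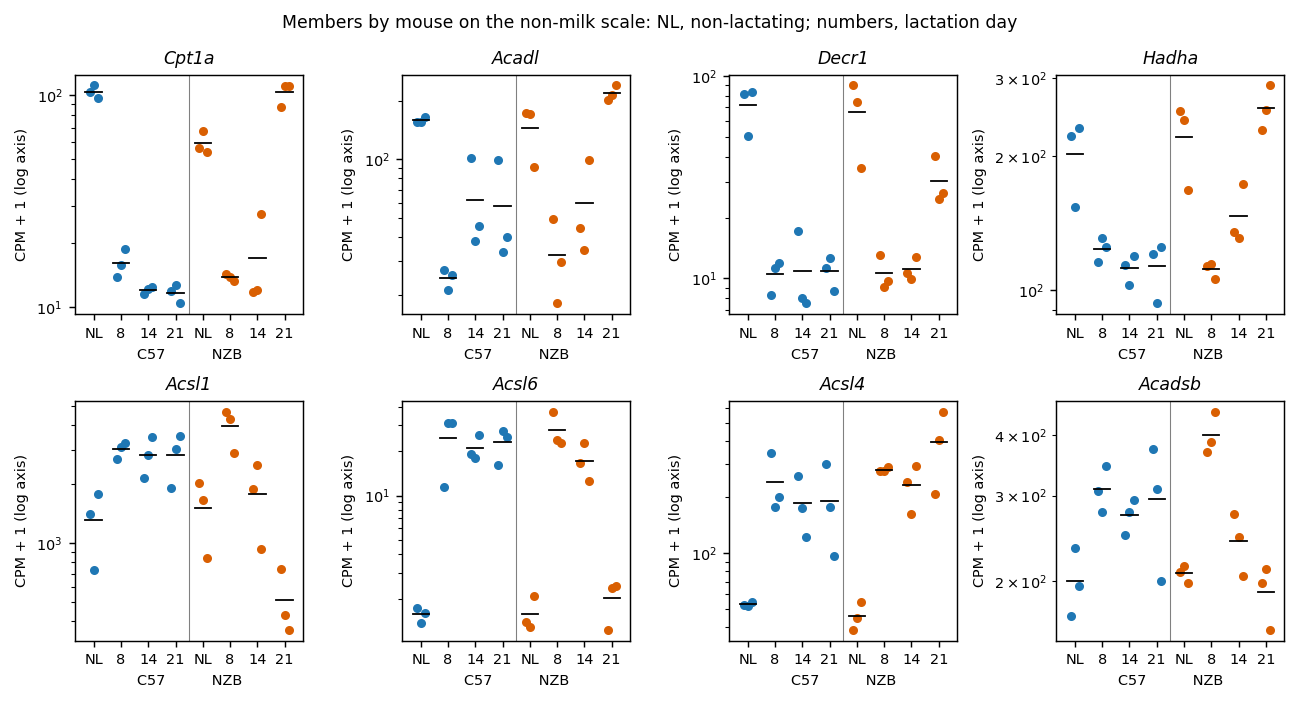
Non-milk CPM of selected members in each mouse (points) with group means (lines) on a log axis of CPM + 1, by genotype and stage. Acsl6 is near 1 CPM or below in non-lactating glands and in NZB day 21 (at most 1.45) and at 10.4 or more in the other lactating mice, while Cpt1a shows the opposite order.

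The acyl-CoA dehydrogenases open each turn of the spiral and differ in the chain length they take. Acadl, the long-chain enzyme (chr1:66830839-66863277), stood at 154, 155 and 164 CPM in non-lactating C57 mice and at 25.9, 20.2 and 24.3 on day 8, a fall of 2.71 ± 0.37 (limma adjusted p = 1.9e-06). On days 14 and 21 C57 mouse 1 held 101.02 and 98.3 CPM, above its fellows at 32.4 to 44.7, and these mice also had the lowest milk protein share of their groups. Acadm, the medium-chain enzyme, went from 80.6, 71.8 and 86.8 CPM to 28.5, 26.6 and 30.7, a fall of 1.45 ± 0.18 (limma adjusted p = 6.9e-07). Acads, the short-chain enzyme, went from 93.4, 71.1 and 89.5 CPM to 28.6, 26.7 and 29.1, a fall of 1.55 ± 0.19 (limma adjusted p = 3.2e-07).

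The falls of these 3 enzymes were repeated in NZB. Acadl fell there by 2.23 ± 0.50 (limma adjusted p = 0.0012), Acadm by 1.98 ± 0.25 (limma adjusted p = 1.7e-06) and Acads by 1.52 ± 0.25 (limma adjusted p = 5.6e-05). Acadvl, the very-long-chain enzyme, was between 25.4 and 35.8 CPM in non-lactating C57 mice and between 16.9 and 30.1 on day 8, and its change of -0.39 did not pass; Dvl2 on the opposite strand covers 42.9% of its exon bases. Acad9, better known for assembly of complex I, changed by 0.16 and Acad8, an enzyme of valine breakdown, by 0.19, neither past the threshold.

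Acadsb takes short branched chains from isoleucine. Its level was 169, 233 and 195 CPM in non-lactating C57 mice and 306, 276 and 343 on day 8, a rise of 0.64 ± 0.17 that turns direction on the deposited scale (limma adjusted p = 0.0028), lost without C57 non-lactating mouse 1 (0.53, limma adjusted p = 0.058). In NZB it rose by 0.94 ± 0.23 (limma adjusted p = 0.0021), from 198 to 214 CPM before to 368, 386 and 445, and was -0.97 on the deposited scale. It was the one dehydrogenase of the 9 that rose on day 8 on the non-milk scale. Acad11, a further member of the family, fell by 1.52 ± 0.20 in C57 (limma adjusted p = 7.7e-07).

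The trifunctional protein, made by Hadha and Hadhb, runs the last 3 reactions on long chains, and Hadh, Echs1 and Acaa2 serve shorter ones. Hadha (chr5:30118304-30155162) stood at 221, 153 and 230.1 CPM in non-lactating C57 mice and at 115, 130.2 and 124 on day 8, and Hadhb (chr5:30155248-30184593) at 125, 109 and 136 and then 62.6, 84.3 and 86.9. These neighbours fell alike, by 0.69 ± 0.15 (limma adjusted p = 0.00061) and 0.67 ± 0.16 (limma adjusted p = 0.0013). With trimmed-mean scaling neither passed in C57 (-0.35 and -0.32), though the non-lactating and day 8 mice did not overlap. Hadh went from 166, 114 and 185 CPM to 47.2, 52.3 and 46.9, a fall of 1.62 ± 0.19 (limma adjusted p = 1.5e-07), and by 1.76 ± 0.25 in NZB (limma adjusted p = 8.7e-06). Acaa2, the thiolase, fell by 1.08, Acat1 by 0.84 and Hsd17b10 by 0.62 in C57, while Echs1, between 129 and 148 CPM before and 99.2 and 133 on day 8, changed by -0.26 and did not pass.

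Decr1 removes a double bond that the spiral cannot handle, and Eci1 moves one. Decr1 (chr4:15917240-15945507) went from 80.5, 49.2 and 82.0 CPM to 7.29, 10.3 and 10.9 in C57, a fall of 2.75 ± 0.28 (limma adjusted p = 2.4e-08), and by 2.56 ± 0.38 in NZB (limma adjusted p = 1.3e-05). Eci1 fell by 0.93 in C57. Both thus fell on day 8, by unequal amounts.

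Electron transfer flavoprotein collects the electrons of the dehydrogenases and its oxidoreductase Etfdh passes them to the respiratory chain. Etfa went from 91.5, 62.3 and 105 CPM to 41.9, 47.98 and 48.6 in C57, a fall of 0.86 ± 0.19 (limma adjusted p = 0.00048). Etfdh, between 84.9 and 106 CPM before and 72.0 and 79.2 on day 8, changed by -0.30 and did not pass. Etfb was listed between 0.46 and 9.79 CPM throughout; 58.2% of its exon bases overlap Gm45233, so its level is uncertain. Of the propionyl-CoA carboxylase pair, which takes the last 3 carbons of odd chains, Pccb fell by 0.59 in C57 and Pcca, at -0.18, did not pass.

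The calls that held in other settings were counted for each comparison. In C57, 19 of the 24 day 8 calls were kept whichever mouse of the compared groups was left out, and 15 were also kept with trimmed-mean scaling and with limma voom on reads recovered from the values. In NZB only 9 of the 26 day 8 calls were kept in all of these: Acaa2, Acadm, Acads, Acsl4, Acsl6, Cpt1a, Crat, Decr1 and Hadh. Without NZB non-lactating mouse 2 the NZB count on day 8 was 9 and on day 14 it was 8, with no share of all genes given. The NZB non-lactating mice differed among themselves, and mouse 3 was the lowest of its 3 mice in Hadh (93.6 CPM against 233 and 200.2), Acsl1 (834 against 2028 and 1654) and Decr1 (34.2 against 88.7 and 73.7).

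Fat markers moved with these groups. The summed level of 21 white adipocyte genes ran from 20031 to 30747 CPM in C57 non-lactating mice and from 5682 to 7303 on day 8, and from 12887 to 35498 and 6887 to 8016 in NZB. A few abundant genes carry this sum: 19 of the 21 genes fell in each genotype, with medians of -4.0 in C57 and -3.9 in NZB. Of 10 fibroblast genes, 10 fell in C57 and 8 in NZB (medians -3.17 and -2.01), and of 10 hormone-sensing luminal genes 9 fell in C57 (median -3.02) and 6 in NZB (median -1.6). Among the non-lactating NZB mice, the lowest in the adipocyte sum, mouse 3, also had the most B and T cell transcripts (2043 CPM over 13 genes, against 30.4 and 638). Summed over 7 luminal secretory genes the level went from between 511 and 724 CPM to at least 12882 in lactating C57 mice. Of these 7 genes, 5 rose and 2 fell on C57 day 8, and 5 rose and 1 fell on NZB day 8. The part of these cell types in the members' falls was not tested. Leaving out the pair of non-lactating mice lowest in fat markers, C57 mouse 2 and NZB mouse 3, a choice made after seeing the data, gave 23 lower and 5 higher members in C57 on day 8, where 37.0% of all genes were lower and 20.1% higher, and 23 lower and 6 higher in NZB, where 26.1% and 15.7% were.

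Lactation day 21 in NZB differed from the other lactating groups. Against NZB day 14, 12 members rose and 2 fell, where 20.7% of all genes rose and 6.78% fell; the median was 0.36 over the members and 0.28 over all genes. Cpt1a, Acadl, Decr1 and Acads rose most, and Acsl6 and Acsl1 were the members that fell. With trimmed-mean scaling, 4 rose (Cpt1a, Acadl, Acads and Decr1) and 3 fell (Acsl6, Acsl1 and Acadsb), against 9.66% and 11.0% of all genes. By role, the 12 that rose were 3 of the shuttle, 3 dehydrogenases, 4 of the later spiral, Decr1 and Etfdh. Without NZB day 14 mouse 2 the count called was 8, and without NZB day 21 mouse 2 it was 9, with no share of all genes given.

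Cpt1a stood at 10.9, 11.03 and 26.4 CPM on NZB day 14 and at 86.6, 109 and 109 on day 21, so every day 21 mouse was above every other lactating mouse of either genotype. The rise was 2.69 ± 0.23 (limma adjusted p = 2.3e-08), and NZB exceeded C57 on day 21 by 3.13 ± 0.25 (limma adjusted p = 1.6e-08). This put NZB day 21 close to non-lactating C57 glands, at 95.5 to 109.6 CPM, and above the NZB non-lactating mice at 52.9 to 66.5. The difference from the latter was 0.79 ± 0.30 and did not pass (limma adjusted p = 0.059), though it did with trimmed-mean scaling (limma adjusted p = 0.039).

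Acadl followed the same order. It was at 43.6, 33.02 and 98.8 CPM on NZB day 14 and at 201.09, 214 and 239.6 on day 21, above every other mouse of the study, with a rise of 2.04 ± 0.39 (limma adjusted p = 0.00061). Acads went from 30.9, 26.3 and 38.3 CPM to 64.2, 63.2 and 76.3, a rise of 1.08 ± 0.20 (limma adjusted p = 0.0004). Decr1 went from 9.61, 8.96 and 11.7 CPM to 39.0, 23.6 and 25.4, a rise of 1.42 ± 0.30 (limma adjusted p = 0.0012), to 1 mouse above the lowest non-lactating NZB mouse at 34.2. These day 14 and day 21 mice did not overlap for any of the 3 genes.

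The trifunctional pair rose alike again. Hadha went from 134, 129.8 and 172 CPM to 228, 253 and 288, a rise of 0.82 ± 0.16 (limma adjusted p = 0.00078), and Hadhb from 72.0, 69.8 and 90.2 to 124, 141 and 138, a rise of 0.80 ± 0.17 (limma adjusted p = 0.0014). With trimmed-mean scaling neither passed. Cpt2, Slc25a20, Acadm, Hadh, Acaa2 and Etfdh rose by between 0.39 and 0.71, and none of these 6 passed with trimmed-mean scaling or voom. Acat1, Hsd17b10, Echs1, Pcca and Pccb did not pass.

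Acsl6 fell in the same mice to almost none. It stood at 15.7, 21.6 and 11.7 CPM on NZB day 14 and at 0.23, 1.37 and 1.45 on day 21, close to the 0.29 to 1.07 of the 6 non-lactating mice, a fall of 3.13 ± 0.37 (limma adjusted p = 3.5e-06). Acsl1 went from 1888, 2497 and 937 CPM to 737, 431 and 361, a fall of 1.75 ± 0.36 (limma adjusted p = 0.001), to below the NZB non-lactating mice (-1.54). Acsl4 stayed high, at 205, 405 and 571 CPM, a change of 0.69 from day 14 that did not pass.

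Set against NZB non-lactating glands, NZB day 21 had 10 lower members and 1 higher, where 10.1% of all genes were lower and 12.7% higher, and 9 lower and 2 higher with trimmed-mean scaling, where 25.2% of all genes were called. The higher member was Acsl4, at 2.99 ± 0.45 (limma adjusted p = 4.5e-05). Both propionyl-CoA carboxylase subunits were lower, Pccb at -1.08 and Pcca at -0.74, as were the thiolase Acat1 at -1.07, the hydratase Echs1 at -0.78, Crat at -1.44 and Acadm at -1.09. Acsl4 was the 1 call kept whichever mouse was left out: without NZB non-lactating mouse 2 there was 1 call, and without mouse 3 there were 21.

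**Figure D4:**
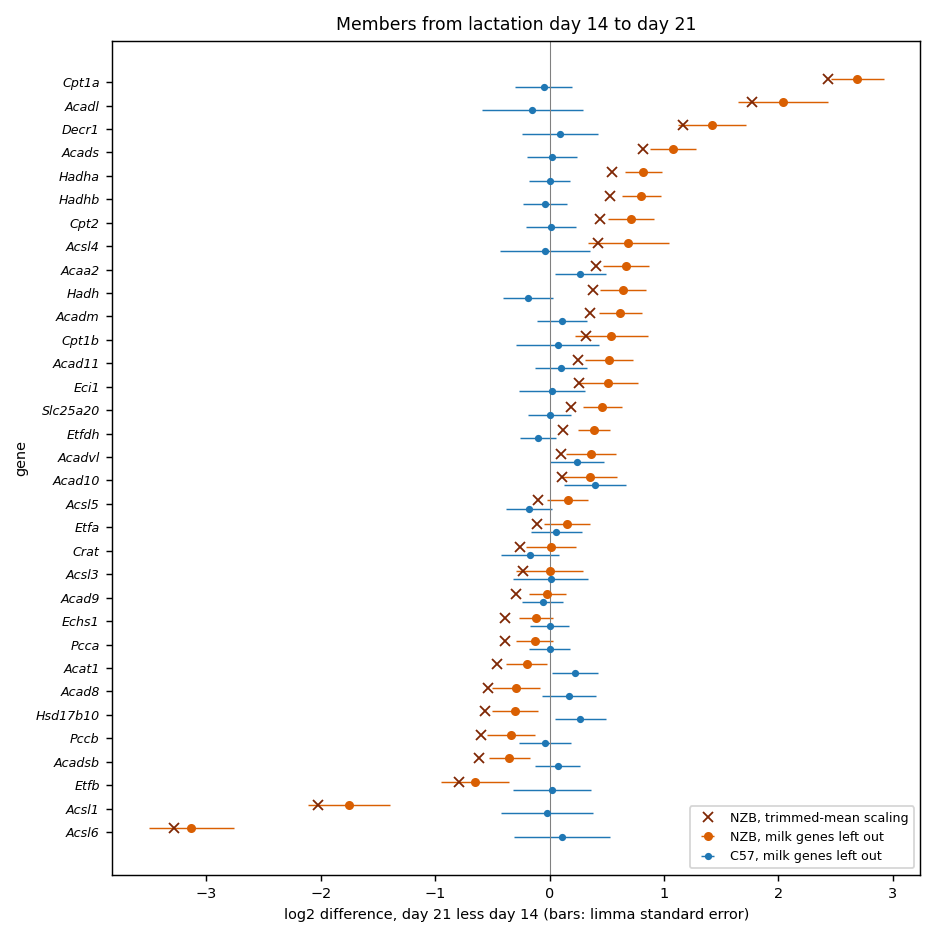
Log2 change of each member from day 14 to day 21 in C57 and in NZB (x axis, points with bars of 1 standard error; crosses give NZB with trimmed-mean scaling), with members on the y axis ordered by the NZB value. C57 points lie around 0 with none past the threshold; NZB points reach 2.69 for Cpt1a and -3.13 for Acsl6.

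Against C57 of the same day, NZB day 21 had 13 higher and 3 lower members, where 18.4% of all genes were higher and 5.41% lower. With trimmed-mean scaling 6 were higher and 4 lower, against 8.56% and 9.18%. Acadl was higher by 2.10 ± 0.43 (limma adjusted p = 0.0011), Hadha by 1.19 ± 0.18 (limma adjusted p = 4.7e-05) and Acads by 1.25 ± 0.22 (limma adjusted p = 0.00026). The lower members were Acsl6 at -3.54, Acsl1 at -2.49 and Acadsb at -0.60, whose groups overlapped and whose value was 0.76 on the deposited scale. The 7 calls kept under trimmed-mean scaling, voom and every left-out mouse were Cpt1a, Acadl, Acads, Hadha, Hadhb, Acsl1 and Acsl6. Without C57 day 21 mouse 2 there were 10 calls.

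The change from day 14 to day 21 was also compared between genotypes directly. It differed for 7 members, 5 more upward in NZB and 2 more downward, where 4.92% and 2.49% of all genes did so. Cpt1a differed by 2.74 ± 0.34 (limma adjusted p = 3.2e-05) and Acsl6 by -3.24 ± 0.56 (limma adjusted p = 0.0013), and these were the 2 kept with every mouse left out and under trimmed-mean scaling and voom. Acadl at 2.18, Acads at 1.06, Hadhb at 0.84, Hadha at 0.81 and Acsl1 at -1.74 passed on the non-milk scale with adjusted p between 0.026 and 0.049 by limma. Decr1 at 1.34 and Hadh at 0.83 did not pass. Without any one of C57 day 14 mouse 1, C57 day 21 mouse 2, NZB day 14 mouse 1 or 2, or NZB day 21 mouse 2, the count was 2; without C57 day 21 mouse 3 or NZB day 21 mouse 3 it was 3, and without C57 day 14 mouse 3 it was 4.

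Fat markers also rose in the NZB day 21 mice: 15 of 21 white adipocyte genes were higher and 2 lower than on NZB day 14 (median 1.39), and 15 higher and 2 lower than on C57 day 21 (median 1.74). Their sum, carried by a few abundant genes, was 13104, 4296 and 4704 CPM, against 5255 to 6548 on NZB day 14. Cpt1a and Acadl were as high in mice 2 and 3 as in mouse 1, the mouse with the highest sum, and without mouse 1 their rises were 2.80 and 2.09. Adipoq, an adipocyte hormone, was 345, 67.6 and 88.3 CPM there, against 27.6, 38.4 and 56.2 on NZB day 14 and 294 to 860.5 in NZB non-lactating mice. Of 10 fibroblast genes, 9 were higher than on NZB day 14 (median 1.15) and 8 higher than on C57 day 21 (median 1.39). The 7 luminal secretory genes summed to 3281 to 4023 CPM, down from 10697 to 15194 on NZB day 14, with 4 lower and 0 higher. Against C57 day 21, 4 of them were lower and 2 higher. The 10 macrophage genes summed to 1303, 1120 and 1793 CPM, against 204 to 300 in C57 day 21. Of 13 skeletal muscle genes, 13 were higher than on NZB day 14 (median 2.63) and 12 higher than on C57 day 21 (median 2.92). They summed to 452, 1505 and 17.6 CPM in NZB day 21 mice 1, 2 and 3, where Cpt1a was at 86.6, 109 and 109. The part of fat, fibroblast, muscle, secretory and macrophage RNA in the change was not tested. NZB day 14 mouse 3, with 875 CPM of macrophage genes against 244 and 204, was also the highest of its group in Cpt1a and Acadl; without it their rises to day 21 were 3.09 and 2.49.

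Non-lactating glands gave no member past the limma threshold between genotypes, where 2.34% of all genes were called. Without NZB non-lactating mouse 1 there was 1 member. Days 8 and 14 gave 0 as well, where 0.124% and 0.0473% of all genes passed by limma. The unadjusted p was under 0.05 for 2 members in non-lactating glands (Cpt1a and Cpt1b), 3 on day 8 and 6 on day 14. The share of all genes at that unadjusted level is not given here, so no excess can be read from these counts. Trimmed-mean scaling and voom also called 0 in these 3 comparisons. A value that missed the threshold does not show that the genotypes were alike.

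Levels between genes were compared per kilobase of exon, counting every base in any annotated exon of the gene. That length was 10483 bases for Acsl1, 5405 for Acsl4 and 2005 for Acadl. Both the order of genes and the shares below depend on it. Acsl1 was the most abundant member in every group other than NZB day 21, at 125 ± 50.9 CPM per kb in non-lactating C57 glands (SD, n = 3), followed there by Acadl at 78.7 ± 2.68. On NZB day 21 Acadl came first at 109 ± 9.78, then Acsl4 at 72.8 ± 33.9, whose spread overlaps with Acsl1 at 48.6 ± 19.1. Before division by length these genes averaged 218 (Acadl), 394 (Acsl4) and 509 (Acsl1) non-milk CPM in that group. Of the per-kb total of the 5 synthetases, Acsl1 made up 84.8% ± 6.67 in non-lactating C57 glands and 39.2% ± 19.5 on NZB day 21, where Acsl4 made up 55.1% ± 19.9. Summed over the 32 members other than Acsl1, the level was 2623 ± 213 non-milk CPM in non-lactating C57 glands, 1842 ± 96 on day 8, 1836 ± 112 on NZB day 14 and 2548 ± 156 on NZB day 21.

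Genes that control the pathway moved in both directions. Of 21 control genes, 10 rose and 4 fell on C57 day 8, with a median of 0.19, where 14.5% of all genes rose and 35.0% fell; in NZB 7 rose and 4 fell, with a median of -0.23, where 12.2% rose and 25.9% fell. Acacb, the acetyl-CoA carboxylase that makes malonyl-CoA at the outer membrane, went from 178, 58.2 and 218 CPM to 1331, 1551 and 1549 in C57, a rise of 3.48 ± 0.37 (limma adjusted p = 4.3e-08). Cpt1a, the enzyme that malonyl-CoA inhibits, fell in the same comparison. Ppargc1a, the coactivator of mitochondrial genes, fell by 1.73 ± 0.35 in C57 (limma adjusted p = 0.00028) and 2.28 ± 0.48 in NZB (limma adjusted p = 0.00064). Ppara, a receptor that drives many members in liver, stood at 8.80 to 12.9 CPM in these 6 mice and changed by -0.02 in C57, and Mlycd, which removes malonyl-CoA, by -0.40; neither passed.

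Ucp3, a mitochondrial carrier induced by fatty acids in muscle, went from 14.6, 9.86 and 17.3 CPM to 344, 301 and 337 on C57 day 8. It kept a high level on NZB day 21, at 192, 342 and 256 CPM, and its change from day 14 was -0.16 and did not pass. Pdk4, a pyruvate dehydrogenase kinase that is induced in fasting, changed by 0.19 on C57 day 8. On NZB day 21 it reached 382, 850 and 1142 CPM, from 32.6, 65.5 and 273 on day 14, a rise of 3.08 ± 0.53 (limma adjusted p = 0.0002), and the genotypes differed in this change by 3.19 (limma adjusted p = 0.017). Acacb went the other way, from 1796, 2308 and 1608 to 304, 213 and 142 CPM, a fall of 3.16 ± 0.39 (limma adjusted p = 4.9e-06). Across the 21 control genes, 4 rose and 7 fell from NZB day 14 to 21, where 20.7% of all genes rose and 6.78% fell.

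**Figure D5:**
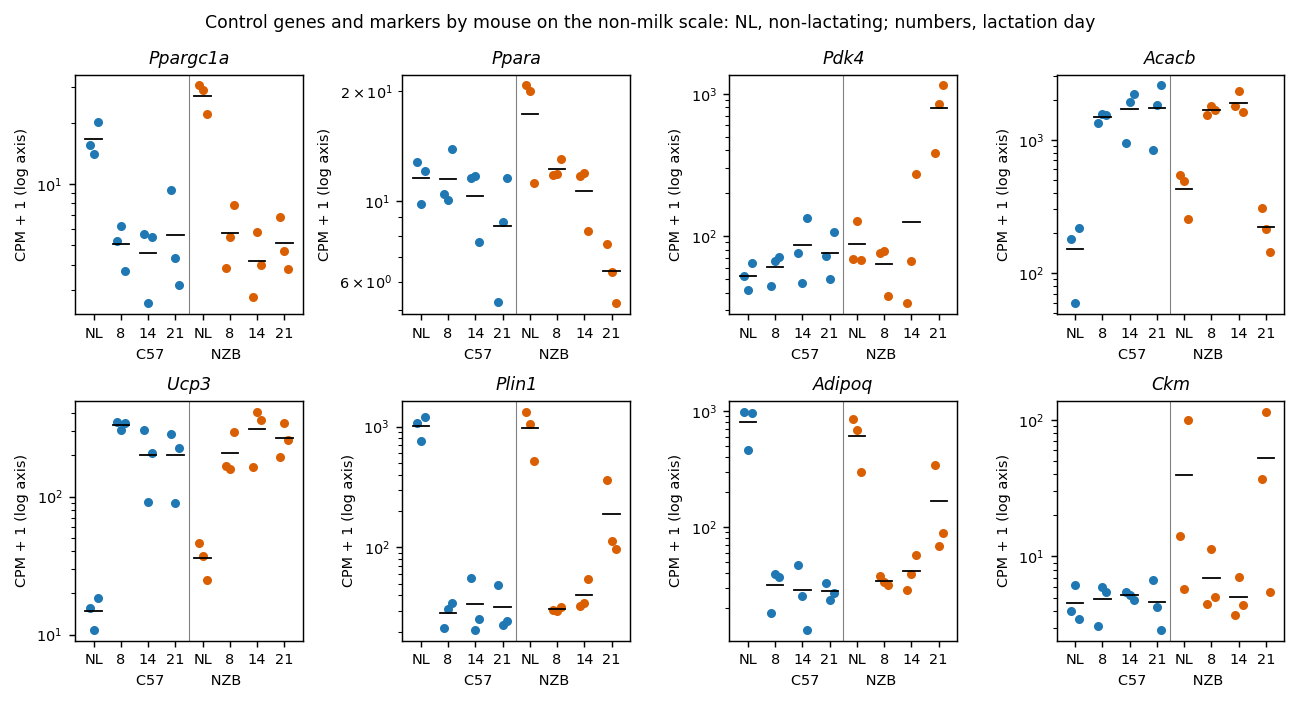
Non-milk CPM + 1 on a log axis in each mouse (points) with group means (lines) for the control genes Ppargc1a, Ppara, Pdk4, Acacb and Ucp3, the adipocyte genes Plin1 and Adipoq and the muscle gene Ckm. Pdk4 is highest in the 3 NZB day 21 mice (382, 850 and 1142 CPM), where Acacb is at 142 to 304 CPM, and Ckm varies between mice of 1 group.

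Mitochondrial content was followed through 14 genes of the respiratory chain, the citrate cycle, pores and import, with Tfam. On C57 day 8, 3 rose and 4 fell, with a median of -0.02, against 14.5% and 35.0% of all genes; in NZB 1 rose and 3 fell, with a median of -0.07, against 12.2% and 25.9%. From NZB day 14 to day 21, 1 rose and 3 fell, with a median of -0.25, against 20.7% and 6.78% of all genes. The fatty acid oxidation members had a median of 0.36 there (0.11 with trimmed-mean scaling) and all genes one of 0.28. These medians are descriptions with no test between the lists.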

How the data were processed

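The authors deposited log10(CPM + 1) per gene, per the labels and the values themselves, with 2 read-file columns per mouse; the submitters' processing notes name GRCm38 and mm10, and the aligner, counter and strand setting are not stated there or in the labels. The 48 columns were turned back into CPM, and the deposited low values gave whole read counts for 100% of values within 0.05 of a whole number. Both columns of a mouse were averaged in CPM and counted as 1 replicate; they differed by at most 0.45% in total reads in 23 mice, and in C57 non-lactating mouse 2 by 81.71%. From these, 20 milk protein genes were left out, the rest was rescaled to a common total, and 27 symbols turned into dates were dropped. Genes above 1 CPM in at least 3 mice were fitted with limma 3.58.1 (R 4.3.3) on log2(CPM + 1), with 8 group means, 16 residual degrees of freedom and 1 weight per group; p-values are two-sided. There were 14 comparisons. The planned count models were not run, although whole reads were recovered from the deposited logs. In their place, limma voom on recovered reads was added after seeing the data. The replicate numbers in the titles did not pair the mice. Members and gene lists were chosen with earlier results of these data known. All members could be named; other genes came from the lists, by smallest adjusted p, plus some that could always be named (Ppara, Ppargc1a, Acacb, Mlycd, Ucp3 and Pdk4; a further one is not reported here). Gene positions are from GENCODE vM21. The script was tested on simulated data.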

Additional observations from a re-analysis of the deposited data

Results flagged for a closer look

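The change from lactation day 14 to day 21 differed between NZB and C57 glands for 7 members by the test of the difference itself (limma, adjusted over all genes). NZB minus C57, it was 2.74 for Cpt1a, 2.18 for Acadl, 1.06 for Acads, 0.84 for Hadhb and 0.81 for Hadha, and -1.74 for Acsl1 and -3.24 for Acsl6. With trimmed-mean scaling the differences past the threshold were Cpt1a (2.45) and Acsl6 (-3.42). The NZB day 21 glands also had less milk protein RNA than the C57 day 21 glands. In that comparison 18.4% of all genes were higher and 5.41% lower. Higher were 7 of 10 macrophage, 8 of 10 fibroblast and 12 of 13 skeletal muscle genes (median 2.92 for muscle), with 0 lower in each list. Of 21 white adipocyte genes, 15 were higher and 2 lower. Their sum was 13104, 4296 and 4704 CPM in NZB day 21 mice and 6638 to 7062 in C57 day 21 mice. The part of these in the differences was not tested.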

How the results depend on the processing

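Reversals came with the deposited scale alone: Acsl1 was -0.65, -0.61 and -0.63 on C57 days 8, 14 and 21 and -0.47 on NZB day 8; Acadsb was -1.3 and -1.25 on C57 days 8 and 21, -0.97 on NZB day 8 and 0.76 between genotypes on day 21; Acsl4 was -0.03 and -0.08 on C57 days 14 and 21. The deposited scale gave 19 called members (11 by the reported fit) for NZB day 21 against non-lactating, 1 (0) between non-lactating genotypes, 32 (16) between genotypes on day 21, 31 (14) for NZB day 21 against day 14 and 30 (7) for the difference between genotypes in that change. In the last 3 of these comparisons the median over all genes was 1.35, 1.36 and 1.38 on that scale, so the table as a whole shifted upward. Trimmed-mean scaling gave 14 for NZB day 14 (25), then 10, 7 and 2 for the same last 3 comparisons, and voom 14, 8, 7 and 3. The counts in this paragraph show how the calls depend on the settings, without the share of all genes called in each. Without group weights the non-lactating genotypes gave 2 and the difference 3; with the compared groups alone, NZB day 21 against non-lactating gave 7 and the difference 3. Leaving out NZB non-lactating mice 2 and 3, rich in lymphocyte transcripts, gave 18 for NZB day 21, and leaving out the 2 mice low in fat markers 21; both were chosen after seeing the data. Leaving out each mouse gave 19 to 28, 21 to 30 and 17 to 29 calls for C57 days 8, 14 and 21, 9 to 29, 8 to 26 and 1 to 21 for NZB, 0 to 1, 0 to 0, 0 to 0 and 10 to 16 between genotypes at the 4 stages, 0 to 0 and 8 to 14 for day 21 against day 14 in C57 and NZB, and 0 to 0 and 2 to 8 for the 2 differences. With the replicate block, the counts were 24, 24 and 25 in C57, 26, 25 and 13 in NZB, 17 between genotypes on day 21, 14 for NZB day 21 against day 14 and 6 for its difference; same-numbered mice correlated at a mean of 0.02, 0.02 and -0.03, and the numbers are not known to pair them. Of 173 called single-gene results, 113 stayed past the threshold with trimmed-mean scaling, 110 with voom and 170 with the block. Pseudocounts of 0.25 and 5 kept 170 and 171. The cause was not tested. At 3 mice a group, and with members such as Etfb near 1 CPM, small changes were not detectable.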

Other observations

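Peroxisomal oxidation, which shortens very long and branched chains outside the mitochondrion, was followed in 17 genes. Of these, 11 fell and 3 rose on C57 day 8, and 10 fell and 3 rose in NZB, where 35.0% and 14.5% of all genes did so in C57 and 25.9% and 12.2% in NZB. Phyh, which starts the breakdown of phytanic acid, fell by 4.10 and the transporter Abcd2 by 4.61 in C57, while Ehhadh rose by 1.94 (all past the limma threshold). From NZB day 14 to day 21, 7 rose and 1 fell (20.7% and 6.78% of all genes), with Abcd2 at 2.02, Phyh at 1.29 and Ehhadh at -1.14.

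Of 6 ketone body genes, 4 rose and 2 fell on C57 day 8, where 14.5% and 35.0% of all genes did so. Bdh1 and Oxct1, which use ketone bodies, rose by 4.09 and 1.70 (both past the limma threshold). Of 18 genes for fatty acid uptake and binding, 4 rose and 8 fell on C57 day 8 (14.5% and 35.0% of all genes); the binding protein of heart and mammary epithelium, Fabp3, went from 2.69, 5.10 and 2.91 CPM to 3526, 4506 and 3898, and the adipocyte form Fabp4 fell by 3.56.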
